A study of Mus musculus with 56 samples.

Results

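Visceral adipose tissue (VAT) was compared at 2 times of the food-free light phase, ZT4 and ZT12, in female C57BL/6J mice on nighttime-restricted feeding (NRF). The 8 libraries of this comparison (4 at ZT4 and 4 at ZT12) were taken by their regimen and time labels from 56 in all, and 4 further NRF libraries at ZT8 served as a midpoint to give the order of events. ZT, zeitgeber time, counts hours from lights on. The study placed 9-week-old mice, after 7 days of normal chow at all hours, on NRF or daytime-restricted feeding (DRF) for 7 days under 12 h of light and 12 h of dark, and sequenced polyadenylated RNA of VAT at 7 times. Under NRF food was given in the dark, so ZT4 and ZT12 both lie within the hours without food and are 8 h apart. Strain, sex, age, diet and housing were common to both groups, and NRF is the control regimen of the study. No genotype, drug or transgene was involved. The labels number 4 libraries per group without giving litters or cages, so p-values measure the spread between these libraries. In a bulk tissue, fewer cells of a type and less RNA per cell cannot be told apart.

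White adipocytes store triglyceride after meals and release it between meals. Adipose triglyceride lipase, hormone-sensitive lipase and monoglyceride lipase remove the fatty acids of a triglyceride in turn, while insulin holds this lipolysis back and catecholamines drive it through cyclic AMP. Adipocytes also hold a circadian clock, in which BMAL1 (encoded by Arntl) with CLOCK or NPAS2 activates E-box genes, PER and CRY proteins repress that activation, and REV-ERB and ROR receptors repress and activate Arntl. In nocturnal animals blood glucocorticoid rises toward lights off. ZT4 to ZT12 is therefore a span in which time without food and time of day advance together, and the libraries of this comparison alone cannot tell these apart.

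The 12 NRF libraries held 35038510 to 40442234 reads assigned to genes and 22701 to 24110 genes with at least 1 read. Values are given as CPM, reads scaled by the effective size of the library, and are compared within a gene only. The 11 adipocyte markers were all present, and their summed level was 34192 to 50830.4 CPM at ZT4 and 38095 to 50131 CPM at ZT12. Skeletal muscle markers differed between libraries by far more. Their sum was 22.1, 11.5, 58.1 and 33.1 CPM at ZT4 and 143, 175, 46.8 and 27.4 CPM at ZT12. The groups overlapped, with 643 CPM in ZT8 replicate 4 the highest of the 12, and all 8 changes were above 0 (median 1.98 on the log2 scale). In the fit of the 12 libraries 0 of the 8 muscle markers passed the test. In a fit of the 8 libraries of ZT4 and ZT12 alone, 7 of the 8 were called higher. That fit called 884 of all 15977 genes higher. At ZT12, replicate 1 gave a chi-square per degree of freedom of 91.2 to 131 against replicates 2 to 4, while those 3 gave 20.6 to 26.0 among themselves. Pairs at ZT4 gave 50.3 to 202 and pairs at ZT8 64.5 to 293, so the distance of ZT12 replicate 1 was within that of replicates at the other times. No pair of replicates came near 1, the value for 1 library sequenced more than once, or 0, the value for identical columns.

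Of 16029 genes tested, 784 rose and 683 fell from ZT4 to ZT12 (limma on log2(CPM + 1), Benjamini-Hochberg adjusted p under 0.05), so that 4.89% of the genes tested were called higher and 4.26% lower. A change of at least 1 on the log2(CPM + 1) scale was reached by 123 of the genes that rose (0.767% of those tested) and 81 of those that fell (0.505%), 1.27% of the genes tested in all. The median change of all genes tested was -0.02. Scaled by total reads, 610 genes were called higher and 1036 lower, which turns the split of 784 and 683 round. Without ZT12 replicate 2 the counts were 492 and 346, and without ZT12 replicate 1 they were 622 and 477. The count of lower genes also shrank by over 1.5 times without ZT12 replicate 3 (438), ZT12 replicate 4 (445) or ZT4 replicate 4 (445). The largest movements were those of clock genes, as the plot of all genes shows.

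**Figure D1:**
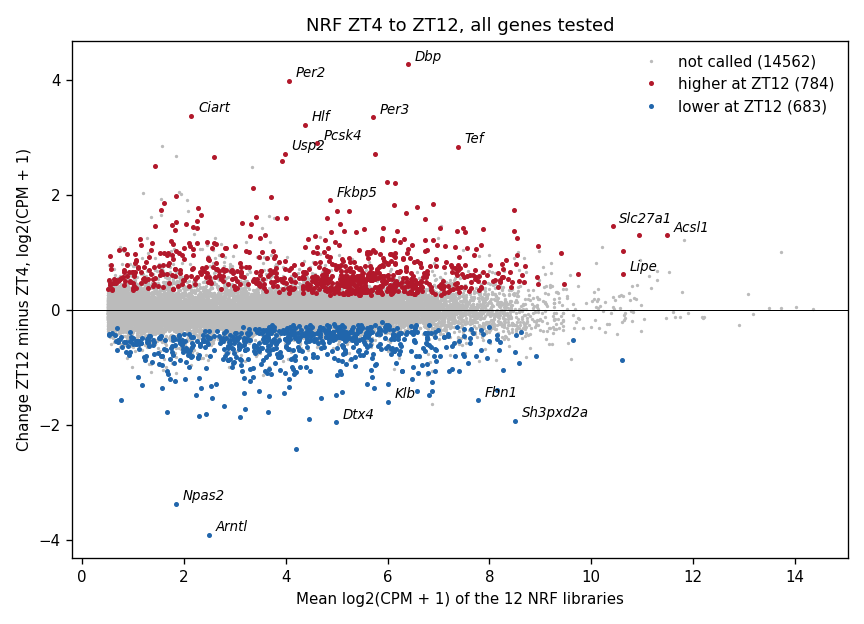
Change from ZT4 to ZT12 under NRF (vertical axis, log2(CPM + 1)) of each of the 16029 genes tested against its mean log2(CPM + 1) in 12 libraries (horizontal axis). Red points are the 784 genes called higher, blue points the 683 called lower and grey points the genes not called. Dbp and Per2 stand highest, and Arntl and Npas2 lowest.

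Activators of the core clock fell and most of its repressors rose. Of 26 clock genes tested 15 rose and 4 fell, where 4.89% and 4.26% of all genes did. The median change of the 26 was 1.31 on the log2 scale. Arntl, which encodes BMAL1 (chr7:113207465-113314126 in GRCm38), had 27.0, 28.3, 22.4 and 20.8 CPM in the 4 libraries of ZT4 and 0.532, 0.767, 0.698 and 0.758 CPM in those of ZT12. Every ZT12 library lay far below every ZT4 library, and Arntl fell by 3.91 on the log2 scale (SE 0.13, limma adjusted p = 2.4e-09). Npas2, its partner and CLOCK paralogue, went from 10.4, 10.1, 13.2 and 16.2 CPM to 0.203, 0.332, 0.295 and 0.298 CPM, again without overlap (change of -3.37, SE 0.17). Clock itself, at 79.4–99.8 CPM at ZT4 and 28.5–37.5 CPM at ZT12, fell by 1.36. At ZT12 the mean CPM of Arntl and Npas2 was 35.7 and 44.2 times lower than at ZT4, and that of Clock 2.60 times lower.

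The repressors moved the other way. Per2 (chr1:91415982-91459324), a partner of cryptochromes in repression, had 5.19, 1.42, 4.14 and 2.96 CPM at ZT4 and 60.8, 70.8, 65.0 and 66.0 CPM at ZT12. The ZT12 libraries were close to one another and all above ZT4, and Per2 rose by 3.99 (SE 0.26, limma adjusted p = 1.1e-06). Per3 rose from 10.9–14.3 to 130.3–161 CPM (change of 3.36, SE 0.21) and Per1 from 13.1–26.1 to 118–145 CPM (change of 2.72, SE 0.21). Ciart, which encodes the CHRONO repressor, went from 0.224, 0.236, 0.273 and 0.362 CPM to 11.9, 13.9, 14.2 and 9.60 CPM and rose by 3.38 (SE 0.27). Cry1, the cryptochrome that acts late in the cycle, rose from 5.71–9.44 to 16.5–22.5 CPM (change of 1.26, adjusted p = 0.00030), whereas Cry2 did not pass the test at 43.2–65.2 and 70.6–76.1 CPM (change of 0.39, adjusted p = 0.067).

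Among the nuclear receptors that act on Arntl, the REV-ERB genes parted. Nr1d2 (REV-ERBβ) rose from 39.9, 47.4, 43.8 and 45.2 CPM to 146, 159.5, 160.2 and 156 CPM, by 1.80 (SE 0.10, limma adjusted p = 2.4e-07). Nr1d1 (REV-ERBα) had 169, 142, 126 and 115 CPM at ZT4 and 166, 142, 138 and 93.9 CPM at ZT12, with overlapping groups and a change of -0.05 (SE 0.16, adjusted p = 0.89). In between, at ZT8, Nr1d1 had 244, 296, 229 and 249 CPM, above every library of ZT4 and ZT12, so that the like values at ZT4 and ZT12 lie on either side of a higher midpoint. The activator gene Rora rose by 0.74. The transcriptional repressors Bhlhe40 and Bhlhe41 rose by 1.40 and 1.60. The groups of Bhlhe40 overlapped, and its call was lost without any 1 library except ZT4 replicate 2 (adjusted p up to 0.10).

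The PAR bZIP factors carry clock time to output genes through D-boxes, and all 3 rose in parallel. Dbp (chr7:45705088-45710203) had 10.2, 14.3, 11.9 and 12.7 CPM at ZT4 and 264, 260.2, 255 and 243 CPM at ZT12, 20.8 times as much on average (change of 4.28, SE 0.13, limma adjusted p = 1.2e-09). Hlf went from 4.74, 5.74, 5.50 and 4.58 CPM to 60.2, 60.3, 49.8 and 55.8 CPM (change of 3.23, SE 0.12). Tef went from 51.8, 49.5, 55.7 and 51.7 CPM to 383, 381, 379.8 and 374 CPM (change of 2.84, SE 0.10). Nfil3 (E4BP4), which binds D-boxes as a repressor, fell from 10.98–13.8 to 5.22–9.45 CPM, by 0.75, a call that was lost in the fit of 28 NRF libraries (limma adjusted p = 0.086). Usp2, a clock-driven deubiquitinase, rose by 2.72, and Wee1, a kinase that holds back mitosis, by 2.11. Besides Cry2 and Nr1d1, clock genes that were not called included Csnk1d, Csnk1e, Fbxl21 and Timeless, with changes of -0.16 to 0.31. Under each of the 18 other settings 14 to 16 clock genes were called higher and 3 or 4 lower, of 26 tested, or of 24 with the filter at a mean log2(CPM + 1) of at least 2.

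**Figure D2:**
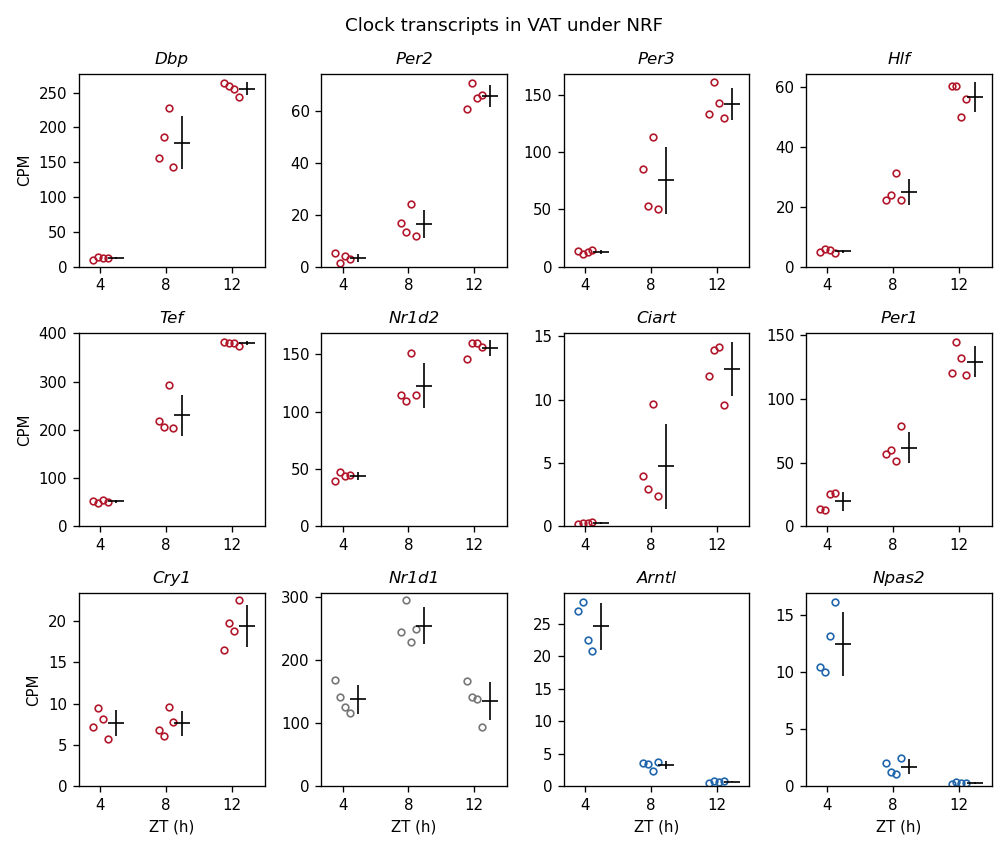
CPM (vertical axes, from 0) of 12 clock genes at ZT4, ZT8 and ZT12 under NRF (horizontal axes). Each open circle is 1 library, and the bar beside each group is its mean with the SD of 4 libraries. Red marks genes called higher, blue genes called lower and grey Nr1d1, which was not called and is highest at ZT8.

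Promoters of some of the clock genes that moved are shown, chosen because they carry the elements named above. They run from 250 bases before to 50 bases after the start of the transcript and come from RefSeq (GRCm38.p6), which had 28 promoters for 20 of the 26 clock genes tested. The E-box CACGTG, read the same on both strands, was searched in each. It was found in 6 of these 28 promoters (21.4%), in 9.52% of the 14690 promoters of genes tested and in 7.15% of all 32851 promoters of this length. Capitals mark the E-boxes of the 2 clock genes with the largest changes among those with a match, Ciart (chr3:95882179-95882478, minus strand) and Tef, which has 2 starts with 1 E-box each (chr15:81802423-81802722 and chr15:81811164-81811463, plus strand). The other promoters with an E-box were those of Cry1, Per1 and Bhlhe41. The 3 E-boxes of Ciart begin 116, 58 and 44 bases before the start, and those of Tef 127 and 138 bases before.
Ciart: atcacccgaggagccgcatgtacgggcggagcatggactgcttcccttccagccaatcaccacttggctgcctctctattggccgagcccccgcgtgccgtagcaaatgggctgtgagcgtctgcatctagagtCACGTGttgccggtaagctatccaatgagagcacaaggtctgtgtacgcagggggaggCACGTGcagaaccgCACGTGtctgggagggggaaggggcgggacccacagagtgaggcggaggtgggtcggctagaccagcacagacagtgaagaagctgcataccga
Tef, first start: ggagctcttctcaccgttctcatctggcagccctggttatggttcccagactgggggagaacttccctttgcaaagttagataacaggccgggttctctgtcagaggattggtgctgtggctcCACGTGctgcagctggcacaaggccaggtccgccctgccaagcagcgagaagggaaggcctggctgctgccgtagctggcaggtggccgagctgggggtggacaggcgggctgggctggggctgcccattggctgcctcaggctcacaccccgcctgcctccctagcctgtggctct
Tef, second start: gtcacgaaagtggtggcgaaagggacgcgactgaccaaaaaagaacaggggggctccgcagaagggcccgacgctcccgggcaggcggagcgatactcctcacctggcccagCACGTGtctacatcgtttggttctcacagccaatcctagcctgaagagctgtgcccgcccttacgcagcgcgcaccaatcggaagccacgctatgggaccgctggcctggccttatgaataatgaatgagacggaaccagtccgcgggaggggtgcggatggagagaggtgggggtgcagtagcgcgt

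Arntl and Per3 were added after the matches were seen. The REV-ERB and ROR response element (RORE), on either strand, was found in 0.219% of all promoters, and its only match among the clock promoters was that of Arntl (chr7:113207261-113207560, plus strand), 28 bases after the start. The D-box TTATGTAA, on either strand, was found in 0.938% of all promoters and in 2 of the 28 clock promoters, those of Timeless and Per3. That of Per3 (chr4:151044616-151044915, minus strand) held 2, which begin 205 and 158 bases before the start. No E-box, RORE or D-box lay in the promoters of Dbp, Hlf, Usp2, Nr1d2, Rora, Clock, Npas2 and Nfil3, which also moved. Capitals again mark the matches in Arntl and Per3.
Arntl: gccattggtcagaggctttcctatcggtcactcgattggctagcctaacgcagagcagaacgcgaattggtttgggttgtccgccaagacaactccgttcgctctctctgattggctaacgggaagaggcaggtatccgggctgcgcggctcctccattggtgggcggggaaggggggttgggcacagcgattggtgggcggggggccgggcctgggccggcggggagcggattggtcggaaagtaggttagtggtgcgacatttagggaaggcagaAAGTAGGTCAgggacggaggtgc
Per3: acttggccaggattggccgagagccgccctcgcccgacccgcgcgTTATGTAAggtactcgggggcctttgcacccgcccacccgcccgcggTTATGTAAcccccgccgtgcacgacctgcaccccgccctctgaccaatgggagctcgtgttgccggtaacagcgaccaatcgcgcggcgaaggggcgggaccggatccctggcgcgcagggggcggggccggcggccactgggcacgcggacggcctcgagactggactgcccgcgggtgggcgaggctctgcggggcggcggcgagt
The promoters covered 577 of the 784 genes that rose, 484 of the 683 that fell and 11501 of the 16029 tested. Genes with more than 1 start count more than once. An E-box lay in 13.3% of the 813 promoters of genes that rose and in 8.43% of the 629 of genes that fell. The share was 9.52% of the 14690 promoters of genes tested. A D-box lay in 0.984% of the promoters of genes that rose, 0.954% of those that fell and 0.579% of all tested. For the RORE the shares were 0.246%, 0.318% and 0.150%, for the cyclic AMP element TGACGTCA 1.85%, 2.07% and 2.78%, and for the heat shock motif GAANNTTC 4.92%, 7.31% and 5.81%. The sterol element lay in 0 promoters of genes that rose or fell and in 0.0477% of all tested. A match is a run of letters and not a measured site, and no promoter in the table of a called cholesterol or heat shock gene held the motif of its list (the sterol element and the heat shock motif).

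Of 19 lipolysis genes tested 3 rose and 1 fell, with a median change of 0.23, where 4.89% and 4.26% of all genes were called. Lipe (chr7:25379527-25398710), which encodes hormone-sensitive lipase, had 1227, 1341, 1228 and 1193 CPM at ZT4 and 1739, 1919.8, 2156 and 1907 CPM at ZT12. The groups did not overlap, and Lipe rose by 0.63 (SE 0.15, limma adjusted p = 0.022). Pnpla2, which encodes adipose triglyceride lipase, had 2208, 1615, 2645 and 1815 CPM and then 3599.8, 2549, 2969 and 2653 CPM, with overlap (change of 0.52, SE 0.22, adjusted p = 0.17). Mgll, the monoglyceride lipase, had a change of -0.06 (SE 0.14). Abhd5, the activator of the first lipase, had one of 0.30 and its inhibitor G0s2 one of -0.60 (adjusted p = 0.066). Hilpda, another inhibitor, fell from 6.08–8.78 to 3.87–4.94 CPM, by 0.58 (adjusted p = 0.047).

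The receptors and signal proteins of lipolysis differed among themselves. Adora1, the adenosine A1 receptor that lowers cyclic AMP, rose most, from 72.5, 51.5, 57.1 and 47.9 CPM to 201, 152, 176 and 162 CPM (change of 1.59, SE 0.14, limma adjusted p = 2.0e-05). Prkar2b, the regulatory subunit of protein kinase A in fat, went from 555, 380.4, 648 and 432 CPM to 993, 929.7, 994 and 993 CPM (change of 0.98, adjusted p = 0.0014). Adrb3, the β3-adrenergic receptor, had 368–576 and 329–483 CPM and a change of -0.04 (SE 0.18). Pde3b, the phosphodiesterase through which insulin lowers cyclic AMP, had a change of 0.41 and did not pass (adjusted p = 0.061), although its groups did not overlap. The lipid droplet coat gene Plin1 had a change of 0.20. Other members, among them Adrb1, Adra2a, Prkaca, Hcar1, Hcar2, Ffar4 and Aqp7, had changes between -0.33 and 0.31, and none passed. None of the 12 lipid droplet coat genes tested was called, at changes of -0.57 to 0.72. The call of Lipe was lost without ZT4 replicate 1 or 4 or ZT12 replicate 2, 3 or 4 (adjusted p up to 0.068), and that of Hilpda without any library but ZT4 replicate 2 (up to 0.12).

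Of 15 genes of triglyceride assembly tested, 6 rose and 0 fell, with a median change of 0.41, where 4.89% and 4.26% of all genes did. Dgat1 (chr15:76502015-76511953), which encodes 1 of the 2 enzymes of the last step, had 275, 281, 282 and 252 CPM at ZT4 and 492, 474, 483 and 450.3 CPM at ZT12. The values within each time were close together, and Dgat1 rose by 0.80 (SE 0.09, limma adjusted p = 0.00012). Gpat4, a glycerol-3-phosphate acyltransferase of the first step, rose from 118, 108, 126 and 119.7 CPM to 263, 196, 222 and 222 CPM (change of 0.93, adjusted p = 0.00010). Lpin1, the phosphatidate phosphatase lipin 1, rose from 365, 353, 169 and 204 CPM to 629.7, 587, 613 and 636 CPM (change of 1.25, adjusted p = 0.0053). Agpat1, Gpat3 and Lpin3 rose by 0.41, 0.36 and 0.46. Dgat2, the other enzyme of the last step, had 3005, 4215, 616 and 1301 CPM and then 1691, 3777, 3745 and 4817 CPM, so that libraries of the same time differed by more than the times did (change of 0.88, SE 0.66). Left out 1 at a time, all libraries but ZT4 replicate 1 ended the call of Lpin3 (adjusted p up to 0.12), all but ZT4 replicate 1 and ZT12 replicate 4 that of Gpat3 (up to 0.12), and both calls were lost under total read scaling.

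Of 13 genes of fatty acid uptake and activation 2 rose and 1 fell, where 4.89% and 4.26% of all genes did. Slc27a1 (FATP1), a fatty acid transporter, rose from 845, 569, 1017 and 676 CPM to 2410.0, 2126, 2015 and 1847 CPM (change of 1.46, SE 0.21, limma adjusted p = 0.00097). Acsl1, the main long-chain acyl-CoA synthetase of adipocytes, rose from 2277, 1721, 1859 and 1657 CPM to 3799.6, 4971, 4912 and 4794 CPM (change of 1.30, SE 0.22, adjusted p = 0.0026). The lowest ZT12 library for Acsl1 was replicate 1, and it still lay above every ZT4 library. Lpl, lipoprotein lipase, was at 7714–9274 CPM and 8971–10345 CPM (change of 0.28, SE 0.33), and Cd36 had a change of -0.13. Angptl4, the secreted inhibitor of lipoprotein lipase, fell from 500.0, 240.0, 604 and 561 CPM to 210.3, 185, 214 and 268 CPM (change of -1.04, adjusted p = 0.036). ZT4 replicate 2 was within the range of ZT12, and the call was lost without ZT4 replicate 1, 3 or 4 or ZT12 replicate 1, 2 or 3 (adjusted p up to 0.10). Skeletal muscle also expresses Slc27a1, and of the ZT4 and ZT12 libraries the sum of muscle markers was highest in ZT12 replicates 1 and 2. The part of muscle in this rise was not tested.

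Of 26 genes of fatty acid oxidation tested, 5 rose and 0 fell (median change 0.19), where 4.89% and 4.26% of all genes did. Acad11, an acyl-CoA dehydrogenase, rose from 106–229.9 to 267–315 CPM, by 0.96. The peroxisomal genes Acaa1b and Ehhadh rose by 0.83 and 0.75, and the mitochondrial carnitine transferase Cpt2 by 0.40. Cpt1a, whose enzyme admits fatty acids to the mitochondrion, had 58.7–87.3 and 61.0–69.0 CPM and did not pass (change of -0.12). Acot4, a peroxisomal thioesterase outside the list, rose from 16.8, 9.00, 21.5 and 16.1 CPM to 48.3, 46.7, 52.2 and 44.7 CPM, by 1.60 (limma adjusted p = 0.00030).

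Of 17 genes of de novo lipogenesis 1 was called, where 9.15% of all genes were called either way. Other members varied widely between libraries. Fasn, fatty acid synthase, had 20339.5, 25186, 3776 and 12855 CPM at ZT4 and 11468, 34274, 29233 and 35799.8 CPM at ZT12, with ZT4 replicate 3 and ZT12 replicate 1 the lowest of their groups and a change of 1.01 (SE 0.98, limma adjusted p = 0.56). Acaca, the cytosolic acetyl-CoA carboxylase, had the same lowest libraries, with a change of 0.67 (SE 0.73). Srebf1, their transcription factor, had 232–618 and 611–975 CPM (change of 1.02, adjusted p = 0.079). Acacb, the carboxylase isoform at the mitochondrial membrane, was the gene called, rising from 332, 279, 143 and 166 CPM to 662, 702, 681 and 881 CPM (change of 1.74, SE 0.32, adjusted p = 0.0045). Skeletal muscle is known for this isoform, and of the ZT4 and ZT12 libraries the same 2 of ZT12, replicates 1 and 2, had the highest muscle marker sum. The part of muscle in the rise of Acacb was not tested. Scd1 was not tested, because its values could not be turned back into reads.

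Single genes of glucose and glycerol metabolism changed. Gys1, muscle-type glycogen synthase, was the 1 gene of 20 for sugar transport and glycogen to pass, rising from 91.9–147 to 175–214 CPM, where 4.89% of all genes rose. All 8 muscle markers had changes above 0 over the same hours (median 1.98), and the part of muscle in the rise of Gys1 was not tested. Pdk2 and Pdp2, a kinase and a phosphatase that act on pyruvate dehydrogenase in opposite ways, rose together by 0.84 and 0.75, and the monocarboxylate transporter Slc16a1 fell by 0.63. Pdk4, a kinase known to rise in fasting, did not pass at 80.9, 36.1, 111 and 119 CPM and 65.5, 57.4, 63.4 and 93.3 CPM (change of -0.20, SE 0.40). Pck1, the enzyme of glyceroneogenesis, had 831–3124 and 1128–2917 CPM (change of 0.21, SE 0.47). In glycolysis Pfkp fell by 0.67 and Aldoc rose by 0.39 (15 genes tested). With libraries left out 1 at a time, Pdk2 was called only without ZT4 replicate 3 and Aldoc only without ZT4 replicate 2 (adjusted p otherwise up to 0.099 and 0.13). For branched-chain amino acids 3 of 22 genes rose, Bcat2, Hibch and Bckdha, by 0.62, 0.49 and 0.39. Hibch was not called without ZT12 replicate 4 (adjusted p = 0.056).

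Of 21 cholesterol synthesis genes 1 rose and 1 fell, near the 4.89% and 4.26% of all genes. Hmgcs1, a synthase of the early pathway, fell from 301, 223, 144 and 174 CPM to 81.1, 63.7, 99.1 and 96.7 CPM (change of -1.26, SE 0.19, limma adjusted p = 0.0015). Fdft1, squalene synthase, rose from 78.8, 86.3, 59.9 and 57.0 CPM to 169.8, 169.8, 150.4 and 161 CPM (change of 1.22, SE 0.13, adjusted p = 0.00012). Neither gene had overlapping groups. The other genes of the list were not called. The median change was -0.06, and ran from -0.29 (without ZT4 replicate 3) to 0.04 (without ZT4 replicate 1) with 1 library left out. Without ZT4 replicate 3, 2 genes of the list were called lower. Abca1 and Scarb1, which pass cholesterol to and from lipoproteins, rose by 0.67 and 0.58.

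**Figure D3:**
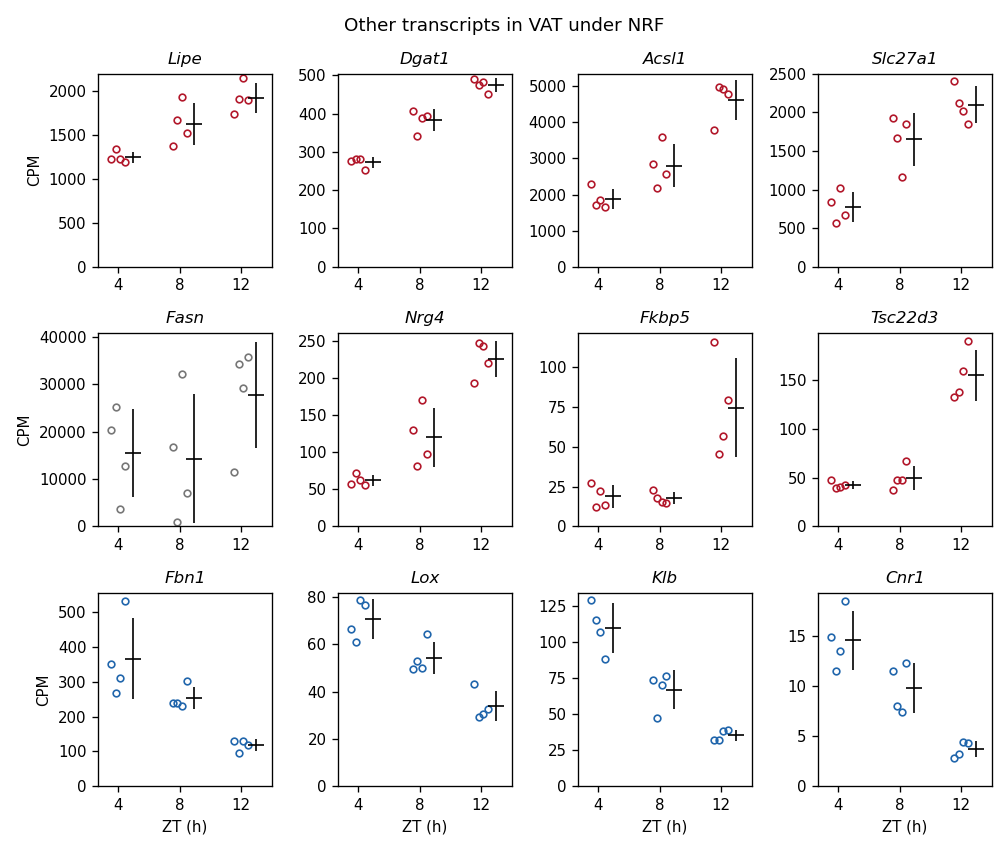
CPM (vertical axes, from 0) of 12 genes of lipid handling, hormone response and matrix at ZT4, ZT8 and ZT12 under NRF (horizontal axes). Each open circle is 1 library, and the bar beside each group is its mean with the SD of 4 libraries. Red marks genes called higher, blue genes called lower and grey Fasn, whose groups overlap. Fkbp5 and Tsc22d3 are still low at ZT8.

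Of 17 genes of the glucocorticoid response tested, 7 rose and 2 fell (median change 0.60), where 4.89% and 4.26% of all genes did. Fkbp5, a receptor co-chaperone, went from 26.9, 12.4, 22.1 and 13.7 CPM to 116, 45.2, 56.8 and 79.2 CPM (change of 1.91, SE 0.28, limma adjusted p = 0.0011). Tsc22d3 (GILZ) went from 47.8, 39.8, 40.6 and 42.1 CPM to 132, 138, 159 and 190.3 CPM (change of 1.83, SE 0.15, adjusted p = 1.5e-05). Neither gene had overlapping groups, and at ZT8 the means were still at 17.7 and 50.04 CPM. Klf9, also a clock-controlled gene, rose by 1.22, and Per1 is counted in this list and in the clock list. Zbtb16, Sgk1 and the metallothionein Mt1 rose by 1.05, 1.01 and 0.60. Cdkn1a and Angptl4 fell, by 1.10 and 1.04. The receptor gene Nr3c1 had a change of 0.07. Zbtb16 was not called without ZT4 replicate 2 or 4 or ZT12 replicate 3 (adjusted p up to 0.056), Mt1 without any but ZT4 replicate 3 and ZT12 replicate 2 (up to 0.077), and Sgk1 without any but ZT4 replicate 3 (up to 0.12).

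Insulin and FOXO genes moved both ways. Of 29 tested 6 rose and 2 fell (median change 0.09), where 4.89% and 4.26% of all genes did. Klf15, a fasting-associated Krüppel-like factor, rose from 59.5, 79.6, 56.5 and 37.6 CPM to 137, 97.4, 97.0 and 100.5 CPM (change of 0.91, limma adjusted p = 0.0066). The insulin receptor Insr rose by 0.38, and Akt2, Foxo3 and Trib1 by 0.49, 0.44 and 0.56. The cell cycle inhibitor Cdkn1a (p21) and the cytokine-signal inhibitor Socs3 fell by 1.10 and 0.61. The call of Trib1 was lost with each library left out (adjusted p up to 0.096), that of Socs3 with each but ZT4 replicate 1 (up to 0.11), that of Akt2 without ZT4 replicate 3 or 4 or ZT12 replicate 1 or 4 (up to 0.083), and that of Insr on log2(deposited value + 1) (adjusted p = 0.068).

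Of 15 adipokine genes 3 rose and 1 fell, where 4.89% and 4.26% of all genes did. Nrg4, a neuregulin secreted by fat, rose from 57.8, 72.3, 62.3 and 56.1 CPM to 193, 246, 242 and 220.4 CPM (change of 1.84, SE 0.18, limma adjusted p = 7.5e-05). Nampt, the rate-limiting enzyme of NAD salvage, also secreted, rose from 83.7–114 to 165–204 CPM, by 0.88. Vegfa rose by 0.65, a call lost without ZT4 replicate 3 or 4 or ZT12 replicate 2 (adjusted p up to 0.065). Leptin was at 611, 348, 326 and 269 CPM and 245, 241, 371 and 466 CPM, with a change of -0.22 (SE 0.33), and adiponectin at 2593–3769.5 and 2838–3434 CPM (change of -0.04). The PPAR and C/EBP list held 4 genes that rose (Klf9, Klf15, Esrra by 0.79, Ppara by 0.75) and 2 that fell (Rxrg by 0.64, Ebf1 by 0.52), of 19 tested. Ppara is low in this tissue, at 6.37–7.42 CPM at ZT4, and its call was lost without any library but ZT12 replicate 2 (adjusted p up to 0.099). That of Rxrg was lost without ZT4 replicate 1, 3 or 4 or ZT12 replicate 2 or 4 (up to 0.11).

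Some matrix genes fell. Of 24 tested 4 fell and 1 rose (median change -0.31), and 22 of the 24 changes were below 0, where 4.26% and 4.89% of all genes fell and rose and 8604 of 16029 changes were below 0. Fbn1 (chr2:125300594-125507993), which encodes fibrillin-1, the microfibril protein from which the hormone asprosin is also cut, had 351, 268, 312 and 533 CPM at ZT4 and 129, 95.6, 131 and 119 CPM at ZT12 (change of -1.58, SE 0.18, limma adjusted p = 0.00019). Lox, the collagen cross-linking oxidase, fell from 66.3, 61.0, 78.8 and 76.4 CPM to 43.2, 29.3, 30.4 and 32.7 CPM, by 1.05 (adjusted p = 0.00030). Col3a1 and Col5a1 fell by 0.87 and 0.79, and Timp3, a metalloproteinase inhibitor, rose by 1.07 from 133–162 to 277–349 CPM. Col3a1 was not called without ZT4 replicate 1, 3 or 4 or ZT12 replicate 2, 3 or 4 (adjusted p up to 0.10), nor Col5a1 without ZT4 replicate 1 or 4 or ZT12 replicate 1, 2 or 4 (up to 0.10). The number of matrix genes that fell was 8 without ZT4 replicate 2, 7 in the fit of 28 NRF libraries, 2 without ZT4 replicate 1 or 4 or ZT12 replicate 2 or 4, and 3 without ZT4 replicate 3 or ZT12 replicate 1 or 3. The fit of 28 NRF libraries called 1018 of all 15957 genes lower. Markers of adipose progenitors, which make much of this matrix, moved with them: 3 of 8 fell (Cd55, Cd34 and Pi16), their sum was 742 to 901 CPM at ZT4 and 570.4 to 683 CPM at ZT12, and Pdgfra, which defines these cells, had a change of -0.12. The call of Pi16 was lost without ZT4 replicate 4 or ZT12 replicate 2 (adjusted p up to 0.072). The part of these cells in the matrix result was not tested. Mesothelial markers had a median change of -0.42 with 0 of 8 called, at sums of 511 to 781 and 388 to 622 CPM.

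The 10 largest falls by the rule used here (no overlap, mean log2(CPM + 1) of at least 3) included 2 genes of hormone and lipid signalling in fat. Klb, β-Klotho, the co-receptor of FGF21, fell from 129, 116, 107 and 88.1 CPM to 32.1, 32.3, 38.3 and 38.9 CPM (change of -1.60, SE 0.15, limma adjusted p = 4.2e-05). Cnr1, the cannabinoid receptor CB1, fell from 14.9, 11.6, 13.5 and 18.5 CPM to 2.86, 3.20, 4.43 and 4.30 CPM (change of -1.73, SE 0.18, adjusted p = 9.5e-05). The deepest fall within the rule was that of Dtx4, a Deltex ubiquitin ligase, from 70.3, 70.3, 56.1 and 60.8 CPM to 15.5, 17.7, 13.5 and 16.6 CPM (change of -1.96, SE 0.11, adjusted p = 1.8e-07). Of the others, Sh3pxd2a, the podosome scaffold TKS5, fell by 1.93, Spon2 by 1.89, the metalloproteinase gene Adamts16 by 1.86 and Creb3l1, a membrane-bound factor for collagen genes, by 1.78. Fbn1, Leo1 (a subunit of the PAF elongation complex, by 1.499) and Sumo2 (by 1.53) complete the 10. Sumo2 had 16.8, 30.4, 53.6 and 66.7 CPM at ZT4 and 11.5, 11.7, 12.9 and 12.5 CPM at ZT12, and its call was lost with each library left out but ZT4 replicate 1 (adjusted p up to 0.11). Sumo2 has near-identical pseudogene copies in the genome, so its value is uncertain where the counting could split its reads.

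Among the 10 largest rises by the same rule (no overlap, mean log2(CPM + 1) of at least 3), 7 were clock genes (Dbp, Per2, Per3, Hlf, Tef, Usp2 and Per1). Pcsk4, a proprotein convertase gene, also stood there and went from 7.55, 7.37, 5.65 and 7.36 CPM to 63.8, 66.2, 57.6 and 47.2 CPM (change of 2.90, SE 0.14, limma adjusted p = 4.9e-08). Slc5a6, the sodium-dependent multivitamin transporter, went from 28.9, 24.2, 23.3 and 26.4 CPM to 121, 119, 142 and 115 CPM (change of 2.23, SE 0.13, adjusted p = 2.8e-07).

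Stress, growth and protein-handling lists had 0 to 4 genes called each, where 9.15% of all genes were called either way. Heat shock genes had 1 of 27 called (Hsp90aa1, fell by 0.58), proteasome genes 1 of 31 (Psmd4), ribosome biogenesis 2 of 36 (Wdr75 and Nop58), tRNA synthetases 1 of 20 (Tars), proliferation genes 1 of 26 (Ccne1) and NADPH supply 0 of 9. For 22 immediate early genes, which respond within minutes to stimulation and handling, only Egr2 was called, lower by 1.12. The ER chaperone list had 3 genes that fell (Sdf2l1 by 1.24, Manf by 0.47, Sec61b by 0.39) and 1 that rose (Herpud1 by 0.85), of 23. Sdf2l1 went from 11.5–16.7 to 4.45–6.57 CPM and Herpud1 from 39.8–52.7 to 72.6–92.3 CPM, each without overlap. The number of ER chaperone genes that fell was 8 without ZT4 replicate 2, 7 in the fit of 28 NRF libraries, and 1 or 2 with any other library left out. The fit of 28 NRF libraries called 1018 of all 15957 genes lower. Of 13 thermogenesis genes only Ppara was called. All 13 changes were above 0 (median 0.46), as were 7425 of the 16029 changes of all genes. In the ATF4 list of 18 genes Chac1 and Psat1 rose by 1.28 and 0.74. For autophagy 3 of 28 genes rose, Depp1, a FOXO target, from 15.2–24.2 to 50.02–61.6 CPM, and Bnip3l and Tfeb by 0.38 and 0.37. In the fit of 28 NRF libraries 7 autophagy genes rose, as did 1017 of all 15957 genes tested there. In that of the 8 libraries alone 4 thermogenesis genes rose, as did 884 of all 15977 genes tested there. With libraries left out 1 at a time, Manf was called only without ZT4 replicate 2, Sec61b only without ZT12 replicate 4, Bnip3l only without ZT4 replicate 3 and Tfeb only without ZT4 replicate 1 (adjusted p up to 0.096, 0.11, 0.089 and 0.098). Hsp90aa1 was called only without ZT4 replicate 3 or 4 and Egr2 only without ZT4 replicate 2 or ZT12 replicate 3 (up to 0.094 and 0.13). Psmd4 was called only without ZT4 replicate 3, Nop58 only without ZT4 replicate 2 or ZT12 replicate 1, Tars only without ZT4 replicate 3 or 4, and Ccne1 in no such fit (up to 0.12, 0.10, 0.10 and 0.13). The plot of gene lists gives the spread of each.

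**Figure D4:**
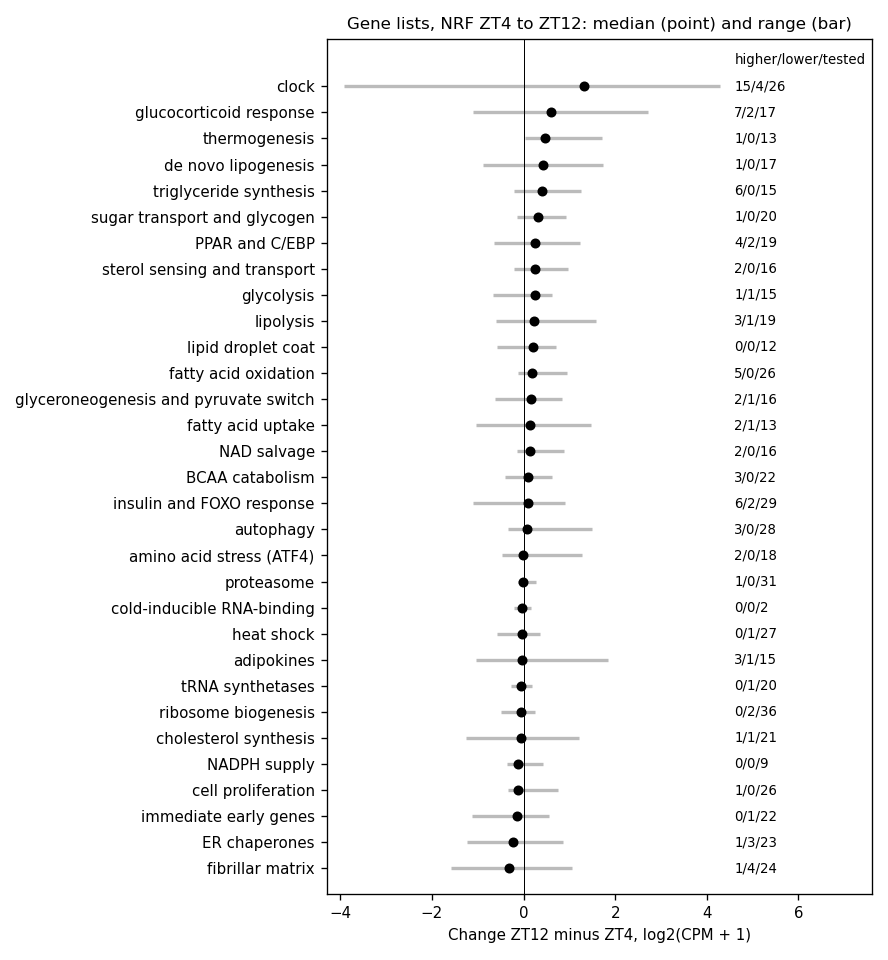
Change from ZT4 to ZT12 under NRF (horizontal axis, log2(CPM + 1)) of 31 gene lists. Points are the median of the members tested and bars run from the lowest to the highest member, with the number called higher, called lower and tested at the right. The clock list has the widest range and the highest median (1.31), and the matrix list the lowest median (-0.31).

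The ZT8 libraries gave the order of these changes. For the 784 genes that rose, the ZT8 mean lay between those of ZT4 and ZT12 for 708, nearer to ZT4 for 344 and nearer to ZT12 for 364. It lay past the ZT12 mean for 41 and below the ZT4 mean for 35. For the 683 genes that fell the ZT8 mean was between them and nearer to ZT4 for 240, nearer to ZT12 for 371, past ZT12 for 58 and on the far side of ZT4 for 14. By the median gene, 50.9% of a rise and 60.0% of a fall was reached at ZT8. Because the calls and this order share the ZT4 and ZT12 libraries, the order is a description.

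Named genes differed in when they moved. Dbp had reached 87.4% of its change by ZT8, at 178 CPM, and Nr1d2 80.4%. Per2 had reached 50.5%, and Cry1 0.21%, at 6.83, 6.13, 9.62 and 7.79 CPM, so that its rise lay between ZT8 and ZT12. Late rises were also those of Nampt (2.40%), Tsc22d3 (11.1%) and Fkbp5, whose ZT8 values of 23.0, 17.8, 15.3 and 14.9 CPM lay within the range of ZT4. Bhlhe41 and Nfil3 passed their ZT12 levels, with 27.9, 33.7, 53.6 and 21.5 CPM and 3.68, 3.28, 3.27 and 4.59 CPM at ZT8. Dgat1, Lipe and Gpat4 stood at 61.2%, 59.8% and 66.3%. Leo1 and Hmgcs1 had nearly completed their falls (90.4% and 87.8%), whereas Cnr1 and Fbn1 had not (31.1% and 30.9%).

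The same hours without food occur under DRF in the dark, from ZT16 to ZT24, and 2118 of 15907 genes (13.3%) changed differently there than under NRF (limma interaction, 24 libraries, adjusted p under 0.05). The change under NRF was the higher of the pair for 1043 (6.56%) and the lower for 1075 (6.76%). The 2 comparisons share no library. Of the 777 genes that rose under NRF and were tested there, 155 (19.9%) rose in the DRF fast and 51 (6.56%) fell, while 5.43% and 5.06% of all genes rose and fell there. These 155 are 17.96% of the genes that rose in the DRF fast. Of the 680 that fell under NRF, 50 (7.35%) fell and 42 (6.18%) rose. Of the 5 largest differences by the rule on naming genes, 3 were of clock genes. Dbp rose under DRF by 0.91 against 4.28, Hlf had a change of -0.21 against 3.23, and Per2 fell by 1.26 (difference of 5.25, SE 0.30, limma adjusted p = 4.1e-11). Fkbp5 fell by 1.62 in the DRF fast and rose under NRF (difference of 3.52, adjusted p = 1.8e-05). Adamts16 and Fbn1 rose there by 1.44 and 0.93 and fell under NRF (differences of -3.31 and -2.51).

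Several genes rose in both fasts, and the difference did not pass the test. Dgat1 rose by 0.80 under NRF and 0.78 under DRF, a difference of 0.02 (SE 0.15, limma adjusted p = 0.95), and Prkar2b by 0.98 and 1.01 (difference of -0.02, SE 0.19). Acsl1 rose by 1.30 and 0.95, Acad11 by 0.96 and 0.90, and Acot4 by 1.60 and 1.22, and none of these differences passed. Lipe rose by 0.63 under NRF and 0.34 under DRF (adjusted p = 0.047 there, difference of 0.29, SE 0.15). Nrg4 rose in both, by 1.84 and 0.96, and more under NRF (difference of 0.89, adjusted p = 0.0036). Lpin1 rose under NRF and had -0.40 under DRF and a difference of 1.65 (adjusted p = 0.00021). Cholesterol synthesis genes had 9 of 21 lower in the DRF fast, against 1 of 21 under NRF, and heat shock genes 12 of 27 lower, against 1 of 27. The difference itself was called for 7 of those 21 and 9 of those 27 genes. Over all genes 5.06% were lower in the DRF fast and 13.3% differed. Adipocyte markers also moved in the DRF fast: 3 of 11 rose (median change 0.28), where 5.43% of all genes did. Lipe is counted among these markers as well as in the lipolysis list. The sum of the markers was 28535 to 33465 CPM at ZT16 and 36242 to 43672 CPM at ZT24, without overlap. The part of this in the shared rises was not tested.

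At the same clock hours under DRF, ZT4 to ZT12, mice had food, and 2675 of 15907 genes (16.8%) changed differently from NRF (limma interaction, adjusted p under 0.05). The change under NRF was the higher of the pair for 1432 (9.0%) and the lower for 1243 (7.81%). Scaled by total reads, 4021 genes differed. Of the 777 genes that rose under NRF and were tested, 110 (14.2%) rose under DRF in these hours and 177 (22.8%) fell, where 8.2% and 7.43% of all genes rose and fell. Of the 680 that fell under NRF, 80 (11.8%) fell and 38 (5.59%) rose. Several metabolic genes moved in opposite directions. Acot4 fell by 2.08 under DRF (difference of 3.68, SE 0.29, limma adjusted p = 1.5e-08), Pmepa1, an inhibitor of TGF-β signalling, by 2.52 against a rise of 1.13 under NRF (difference of 3.64), Acsl1 by 1.66, Slc27a1 by 1.24, Prkar2b by 1.18 and Dgat1 by 0.91 (difference of 1.71, adjusted p = 6.7e-08). Fatty acid oxidation had 14 of 26 genes lower under DRF in these hours, and 16 of 26 differed from NRF. Adipocyte markers moved with these genes. Under DRF 3 of 11 fell and 1 rose in these hours (median change -0.42), their sum was 35502 to 40176 CPM at ZT4 and 24917 to 30664 CPM at ZT12, without overlap, and 4 of the 11 differed from NRF. The part of this in the differences above was not tested.

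Several clock genes moved in the same direction with smaller changes. Per3 rose by 1.48 under DRF against 3.36 under NRF (difference of 1.88, limma adjusted p = 1.6e-07), Per1 by 1.37 against 2.72, and Dbp by 0.90 against 4.28. Arntl fell by 1.04 under DRF against 3.91 (difference of -2.87). Usp2 was an exception and fell, by 0.76 (difference of 3.48, adjusted p = 7.1e-11), as did Cry1, by 0.75. Nr1d2 rose by 1.31 against 1.80, a difference that did not pass (adjusted p = 0.065). Of the glucocorticoid targets, Fkbp5 rose by 1.30 and Zbtb16 by 1.86 in these hours under DRF, with differences from NRF of 0.61 and -0.81 that did not pass, and Tsc22d3 had 0.36 (difference of 1.46, adjusted p = 0.0057). Fbn1, Klb and Cnr1 had changes of -0.27, -0.42 and 0.36 under DRF, all 3 different from NRF (adjusted p of 0.0089, 0.00078 and 3.3e-05).

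Both DRF comparisons are set against the same NRF libraries, and by them the 777 genes that rose under NRF and were tested under DRF divide into classes, given beside the same classes among all 15715 genes tested under both regimens. In 82 (10.6%, against 1.72% of all genes), among them Dgat1, Acsl1, Slc27a1, Prkar2b, Acad11, Acot4, Pmepa1 and Nrg4, the gene rose in the DRF fast and fell over the same clock hours with food, the directions in which the sum of adipocyte markers also moved. In 27 (3.47%, against 1.196%), among them Per2 and Fkbp5, it rose over the same clock hours and fell in the DRF fast. A further 70 (9.01%, against 3.67%) rose in the DRF fast and were not called over the clock hours, and 23 (2.96%, against 3.66%) fell in the fast and were not called over the clock hours. Over the clock hours 80 (10.3%, against 6.92%) rose and 94 (12.1%, against 5.60%) fell without a call in the fast. There were 397 (51.1%, against 77.0%) called in neither, 3 that rose in both and 1 that fell in both. Of the 680 genes that fell and were tested under DRF, 500 (73.5%, against 77.0%) were called in neither, 61 (8.97%, against 5.60%) fell over the clock hours alone and 36 (5.29%, against 3.66%) in the DRF fast alone. These classes rest on calls, and the tests of the differences are those given above.

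**Figure D5:**
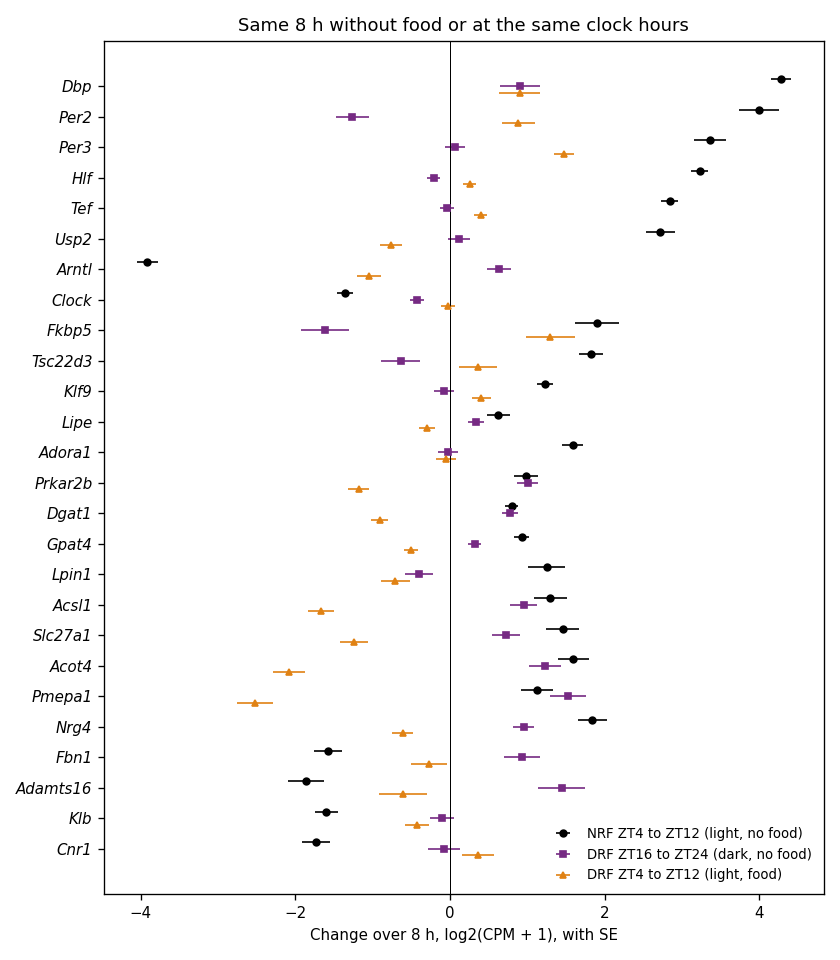
Change over 8 h (horizontal axis, log2(CPM + 1), with SE) of 26 genes under NRF from ZT4 to ZT12 (black circles, light phase without food), under DRF from ZT16 to ZT24 (purple squares, dark phase without food) and under DRF from ZT4 to ZT12 (orange triangles, light phase with food). For Dgat1 and Prkar2b the circle and square lie together and the triangle on the other side of 0, while for Dbp and Hlf the circle lies far from both.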

How the data were processed

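RNA of visceral adipose tissue was sequenced in 56 libraries (2 regimens, 7 times, 4 libraries each), and the 12 NRF libraries of ZT4, ZT8 and ZT12 are the ones described. Per the labels' processing notes, the authors used HISAT2 2.0.5 and featureCounts 1.5.0-p3 with mm10. The deposited score, 1 value per gene and library for 25939 genes, is named TPM by the authors. From its values it is log2(CPM + 1) divided by exon length and scaled per library. Whole reads were therefore recovered: 99.99% of 1262086 values of at most 10000 reads came within 0.02 of a whole number, where 4% would by chance. The exon length came from GENCODE vM21 for 25044 genes and from the values themselves for 880. Another 13 genes were too abundant to test for whole reads and kept the GENCODE length without this check. Pcx and Scd1, which could not be resolved, were left out. The recovered reads sum to 35038510 to 40442234 per NRF library. CPM here is relative to the effective library size that the values imply. A library's reads have no molecular identifiers, so depth covers counting error only.

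Log2(CPM + 1) was tested with limma 3.58.1 (intensity trend, two-sided) in R 4.3.3, in 1 fit of the 3 NRF groups. The 16029 genes with a mean of at least 0.5 were tested, with Benjamini-Hochberg adjustment over all of them and a threshold of 0.05. Fold changes on this scale are understated for low genes. Differences from DRF were interaction contrasts in a fit of 24 libraries and 15907 genes. On simulated data for the ZT4 to ZT12 comparison, 40 of 100 genes changed by 0.5 and 89 of 100 changed by 1 (log2) were recovered, with 7 of the other genes called. Alternatives were the replicate block, the pseudocount, the filter, the scaling, the libraries in the fit, the deposited scale and the variance model. Each NRF library of ZT4 and ZT12 was also left out in turn, but no library of ZT8 or DRF.

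The named genes are the 10 largest rises and 10 largest falls among called genes without overlap (mean of at least 3), the called members of each gene list with the largest change, all clock and lipolysis members, and the 5 largest differences from each DRF comparison. The members and lists were chosen with earlier results of these data known. Gene positions are from GENCODE vM21 (GRCm38, the build mm10) and promoters from RefSeq (GRCm38.p6). Some of the genes that this rule names are not reported here.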

Additional observations from a re-analysis of the deposited data

Results flagged for a closer look

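Among the genes named, 18 of 258 groups of 4 libraries held 1 library far from the other 3 by Dixon's test (95% critical value), where chance gives about 1 in 20. At ZT12, replicate 1 was the library apart in 6 of them, low for Acsl1 (3800 CPM), Pdk2 (255.8 CPM), Gys1 (175.1 CPM) and Acaca (2073 CPM) and high for Klf15 (137.1 CPM) and Nr3c1 (178.2 CPM). Replicate 2 of ZT12 was low for Prkar2b (929.7 CPM) and Cd34 (152.5 CPM), and replicate 3 of ZT12 stood apart for Egr2 (2.685 CPM) and Trib1 (32.68 CPM). At ZT4, replicate 3 stood apart for Pcsk4 (5.652 CPM), Acaa1b (83.44 CPM), Sec61b (62.55 CPM) and Bnip3l (208.0 CPM). Replicate 1 of ZT4 stood apart for Tfeb (16.34 CPM), Lpl (9274 CPM) and Insr (156.8 CPM), and replicate 4 for Pi16 (155.7 CPM).

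For 7 of the genes with the largest changes, the change under NRF and a change under DRF were both called in opposite directions, and the difference between them passed limma's interaction test (Benjamini-Hochberg adjusted p under 0.05). Against the DRF fast of ZT16 to ZT24 the differences were 5.253 for Per2, 3.521 for Fkbp5, -3.308 for Adamts16 and -2.507 for Fbn1, on the log2(CPM + 1) scale with 4 libraries per group. Against DRF at ZT4 to ZT12 they were 3.676 for Acot4, 3.645 for Pmepa1 and 3.478 for Usp2.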

How the results depend on the processing

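Counts of called genes moved more than directions did. Leaving out 1 NRF library of ZT4 or ZT12 at a time gave 492 to 653 genes higher and 346 to 583 lower, against 784 and 683. Genes at least 2-fold higher then numbered 112 to 141, and those at least 2-fold lower 66 to 96. Such omissions left 1506 to 2322 genes that differ from the DRF fast and 2050 to 2704 that differ from DRF at ZT4 to ZT12. Scaling by total reads, which moved the median change of all genes by -0.05, gave 1036 genes lower and 4021 that differ from DRF at ZT4 to ZT12. On log2(deposited value + 1), a compressed scale on which a change of 1 is more than 2-fold in CPM, 45 called genes were higher by at least 1 and 21 lower by at least 1. Of 106 named genes called, 72 kept the call under every alternative in which they were tested, and 0 of the 106 changed sign under one. With the filter at a mean log2(CPM + 1) of at least 2, only 124 of the 127 named genes were tested. Of the 21 named genes not called, 6 changed sign under an alternative (Nr1d1, Mgll, Adrb3, Pck1, Lep and Adipoq).

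The replicate numbers do not pair the libraries: same-numbered libraries at ZT4 and ZT12 had correlations of -0.36 to 0.12 in their deviations from the group means, and 1 of 8 correlated best with its own number. With the replicate block 544 genes were higher and 440 lower, and 951 of the 1467 calls (64.8%) were shared.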

Other observations

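At ZT8, replicate 3 was further along than the other libraries of its group. It was the highest of the 4 in 14 of the 15 clock genes that rose (Per1 was the exception) and the lowest in 3 of the 4 that fell (Clock was the exception). The median clock gene had covered 78.7% of its change from ZT4 to ZT12 in this library and 63.7% in the other 3. This pattern was seen in the values and has no test.

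Markers of other cell types, which belong to no gene group of the report, also differed between the groups. The summed ovary markers were at 10.3 to 12.6 CPM at ZT4 and 18.2 to 23.7 CPM at ZT12, and Star, a cholesterol carrier of steroid-making cells, was the 1 of 4 tested that was called, higher by 0.91 on the log2 scale (limma with Benjamini-Hochberg adjustment). Sums of uterine and oviduct epithelium markers were at 23.7 to 39.4 CPM and then 13.0 to 18.7 CPM, with Krt8, a keratin, the 1 of 4 called (change of -1.02). Liver markers summed to 23.6 to 41.4 CPM and then 14.7 to 22.6 CPM, with Alb, albumin, the 1 of 3 called (change of -0.72). None of these 3 sums overlapped between ZT4 and ZT12, all were low, and their part in the results was not tested. Of all genes tested, 4.89% were called higher and 4.26% lower, and 17.9% had no overlap between ZT4 and ZT12. The summed macrophage markers overlapped, at 1099.6 to 1785 CPM at ZT4 and 1052 to 1292 CPM at ZT12. Their median change was -0.35, with 8 of 11 below 0 (8604 of 16029 for all genes) and none of those 8 called. Cd163, a scavenger receptor of resident macrophages, was called higher (change of 0.58).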
